A study of Mus musculus with 8 samples.

Results

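The genes described here are 8 mouse genes that respond to FGF signaling or feed back on it, Spry1, Spry2, Spry4, Spred1, Spred2, Dusp6, Etv4 and Etv5, out of 22380 protein-coding genes of the GENCODE vM1 annotation. Every SMAD4 peak whose centre lay within 100 kb of the 5′ end of a member was taken, which gave 4 peaks from the E9.5 list (2073 in all) and 14 from the E10.5 list (6185 in all). The peaks came from chromatin immunoprecipitation and sequencing (ChIP-seq) with the M2 anti-FLAG antibody on limb buds of NMRI mouse embryos. All embryos were homozygous for a Smad4 allele that adds a 3xFLAG epitope to the endogenous protein (Smad4 3xF/3xF), so the tagged protein was made wherever Smad4 is active, and no untagged control sample was used here. Each stage had 2 ChIP samples and 2 input DNA samples, 8 samples in all, with about 80 embryos per replicate at E9.5 and about 100 embryos per replicate at E10.5. The study's results instead give about 80 forelimb buds per replicate for both stages. At E9.5, which the protocol dates to E9.75, forelimb buds were dissected together with attached trunk, whereas for E10.5 the sources differ. The protocol, the study's methods and the tissue label name fore- and hindlimb buds, and the source label and the description in the study's results name forelimb buds. Where the dissected tissue differed between the stages, stage and tissue cannot be told apart. The replicates of a stage had been combined into a single list before deposition, so no value below has a replicate error, no difference was tested, and the read depth behind the lists is unknown. A region without a peak is therefore not shown to be unbound, and in bulk tissue fewer cells with bound SMAD4 and less SMAD4 per cell cannot be told apart. The lists hold no expression values, so the label "FGF response" was not checked in these samples.

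FGF ligands bind receptor tyrosine kinases and activate the RAS-RAF-MEK-ERK kinase cascade, and in the limb bud FGFs from the apical ectodermal ridge sustain outgrowth of the mesenchyme. Active ERK switches on a set of genes that includes the ETS transcription factors Etv4 and Etv5, which carry the response, and a set of inhibitors that restrain it: the sprouty and SPRED proteins act on the cascade upstream of ERK, and the phosphatase DUSP6 dephosphorylates ERK itself. SMAD4 is the shared partner of the receptor-activated SMADs of BMP and TGFβ signaling and binds short DNA elements, of which the SMAD box CAGAC is the best known.

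Sequences were taken from the mm9 genome around the centre of the peaks that matter most below, 300 bases each, and are written 5′ to 3′ on the strand of the member. Capitals mark the SMAD box (CAGAC, which reads GTCTG on the other strand), the GC-rich SMAD element GGCGCC and the core of the ETS factor site (AGGAAG, which reads CTTCCT on the other strand). The first pair are the regions bound at both stages far upstream of Dusp6, with centres 92.7 and 91.9 kb from its 5′ end at E9.5 (chr10:98632967-98633266 and chr10:98633775-98634074, plus strand). They are shown because they held 18 of the 20 SMAD boxes in the E9.5 windows of the members.
Dusp6 distal region 1: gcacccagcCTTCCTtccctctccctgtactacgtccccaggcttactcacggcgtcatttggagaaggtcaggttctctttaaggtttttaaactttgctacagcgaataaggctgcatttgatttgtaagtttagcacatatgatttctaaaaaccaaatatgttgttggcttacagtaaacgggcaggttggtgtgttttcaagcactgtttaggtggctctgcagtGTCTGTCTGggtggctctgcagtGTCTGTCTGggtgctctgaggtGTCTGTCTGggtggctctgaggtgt
Dusp6 distal region 2: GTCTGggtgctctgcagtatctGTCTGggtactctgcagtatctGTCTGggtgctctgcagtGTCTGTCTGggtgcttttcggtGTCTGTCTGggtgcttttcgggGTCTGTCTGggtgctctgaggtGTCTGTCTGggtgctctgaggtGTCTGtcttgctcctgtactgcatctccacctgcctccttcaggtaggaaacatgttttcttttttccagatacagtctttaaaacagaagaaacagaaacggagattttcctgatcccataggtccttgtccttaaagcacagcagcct

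In the first distal window of Dusp6, 6 SMAD boxes began between bases 231 and 280, and in the second 12 SMAD boxes began between bases 1 and 151, all of them as GTCTG on the plus strand. The window of the E10.5 peak over the start of Etv5 (chr16:22439808-22440107, minus strand) is shown because it is the member window with the GC-rich element, at bases 164 and 234, beside a SMAD box at base 191. The window of the E10.5 peak of Spred1 (chr2:116946147-116946446, plus strand) is shown because this peak overlapped an E9.5 peak. It lies 963 to 664 bp upstream of the 5′ end and so does not contain the start itself.
Etv5 start peak: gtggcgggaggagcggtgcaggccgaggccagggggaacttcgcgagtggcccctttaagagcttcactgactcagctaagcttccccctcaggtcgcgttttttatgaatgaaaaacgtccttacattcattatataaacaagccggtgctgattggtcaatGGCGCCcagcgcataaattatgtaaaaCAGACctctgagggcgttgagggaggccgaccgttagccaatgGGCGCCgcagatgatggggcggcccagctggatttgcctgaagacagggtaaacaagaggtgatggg
Spred1 start peak, E10.5: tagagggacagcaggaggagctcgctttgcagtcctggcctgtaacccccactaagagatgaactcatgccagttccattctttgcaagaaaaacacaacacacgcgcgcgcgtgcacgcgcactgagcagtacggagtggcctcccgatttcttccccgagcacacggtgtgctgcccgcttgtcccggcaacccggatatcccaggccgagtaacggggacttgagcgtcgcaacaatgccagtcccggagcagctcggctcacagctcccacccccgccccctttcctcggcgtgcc

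The windows of the E10.5 peaks at the starts of Dusp6 (chr10:98725408-98725707, plus strand) and Spry2 (chr14:106296790-106297089, minus strand) and of the best-scored Spred2 peak (chr11:19728055-19728354, plus strand) are shown as examples without a SMAD box in the central 300 bases. They are the 3 of 7 such E10.5 windows that held the ETS core, once for Dusp6 and Spry2 and 3 times for Spred2. The whole peaks, which are longer, did hold SMAD boxes: 9 at the Dusp6 start, 3 at Spry2 and 15 at Spred2. The window of Spry2 lies 1053 to 754 bp upstream of the 5′ end, and that of Dusp6 457 to 158 bp upstream.
Dusp6 start peak: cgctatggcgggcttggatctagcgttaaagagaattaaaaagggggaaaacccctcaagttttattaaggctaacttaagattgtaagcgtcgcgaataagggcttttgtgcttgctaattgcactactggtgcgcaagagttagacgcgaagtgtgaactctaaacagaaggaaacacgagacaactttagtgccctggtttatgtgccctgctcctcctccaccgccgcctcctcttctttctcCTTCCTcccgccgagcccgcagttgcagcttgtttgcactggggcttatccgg
Spry2 start peak: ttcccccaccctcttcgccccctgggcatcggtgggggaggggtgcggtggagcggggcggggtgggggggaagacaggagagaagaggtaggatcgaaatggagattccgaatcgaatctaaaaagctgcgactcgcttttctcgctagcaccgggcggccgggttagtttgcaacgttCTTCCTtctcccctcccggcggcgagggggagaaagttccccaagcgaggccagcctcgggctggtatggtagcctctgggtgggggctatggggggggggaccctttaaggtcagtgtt
Spred2 upstream: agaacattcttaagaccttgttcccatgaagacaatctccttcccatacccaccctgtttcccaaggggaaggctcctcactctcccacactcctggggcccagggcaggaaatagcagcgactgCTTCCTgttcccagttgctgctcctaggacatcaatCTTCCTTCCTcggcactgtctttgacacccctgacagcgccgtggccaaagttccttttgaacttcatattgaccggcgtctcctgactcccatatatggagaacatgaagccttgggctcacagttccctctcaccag

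SMAD4 peaks lay near 7 of the 8 members at E10.5 and near 3 of them at E9.5. Of all protein-coding genes, 52.9% had a peak within 100 kb at the later stage and 20.5% at the earlier stage. Spred1, Dusp6 and Etv4 had peaks of both stages (14.6% of all genes), Spry2, Spry4, Spred2 and Etv5 an E10.5 peak only (38.2%), and Spry1 had no peak (41.3%). No member had an E9.5 peak only, the pattern of 5.85% of all genes. The number of peaks per member ranged from 0 to 5 at E10.5 with a median of 1 and a mean of 1.75, against a median of 1 and a mean of 1.01 over all genes. At E9.5 the members had 0 to 2 peaks, a mean of 0.5 per gene against 0.242 over all genes.

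**Figure D1:**
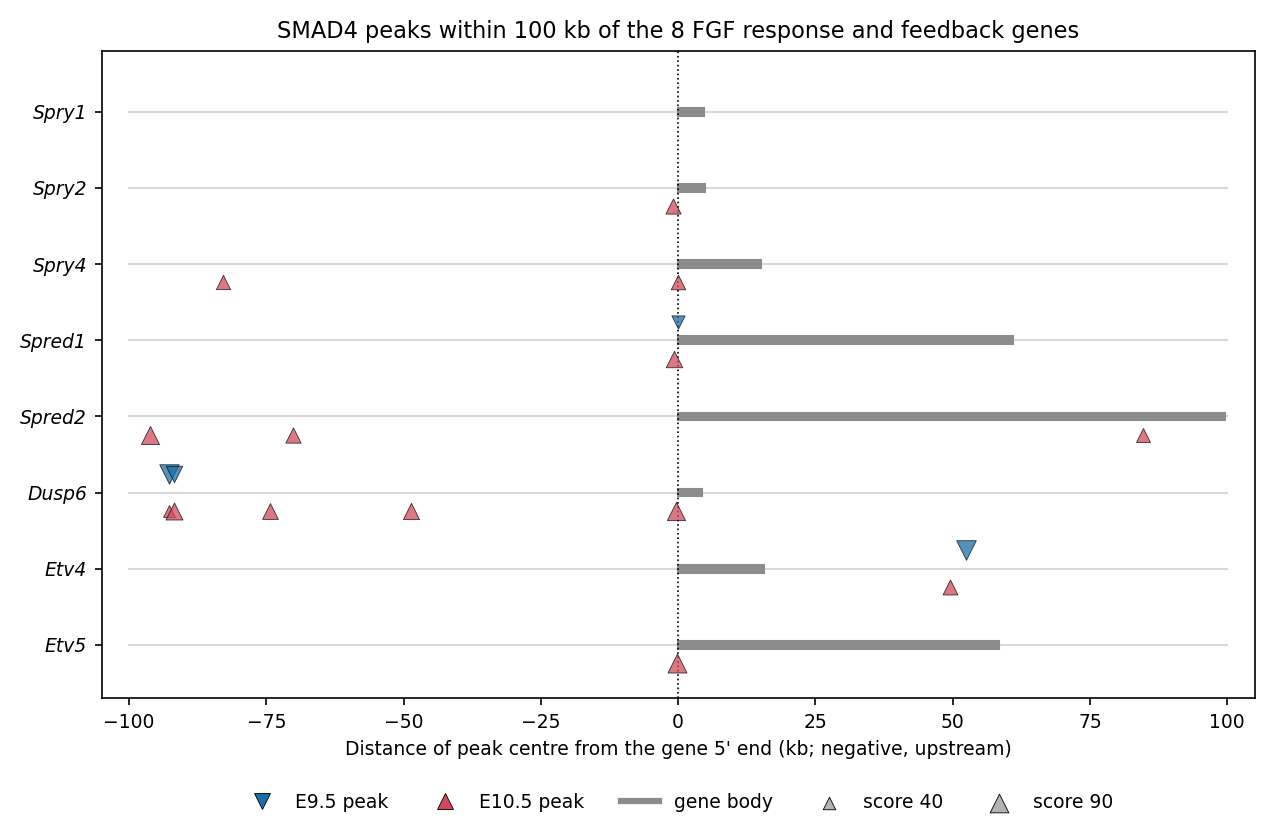
Centres of the SMAD4 peaks of both stages within 100 kb of the 5′ end of each member, with distance in kb on the x axis, symbol area in proportion to the score and grey bars for the gene bodies. An E10.5 peak sits at the dotted line of the 5′ end in Spry2, Spry4, Spred1, Dusp6 and Etv5, the other 9 E10.5 peaks have their centre 20 kb or more away, and the 4 E9.5 peaks lie at Spred1, Dusp6 and Etv4.

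The position of the peaks relative to the gene start differed between members. The 5′ ends of 5 of the 8 members, Spry2, Spry4, Spred1, Dusp6 and Etv5, lay inside an E10.5 peak, which was the case for 11.3% of all protein-coding genes. The 5′ end of 1 member, Spred1, lay inside an E9.5 peak, against 2.10% of all genes. This count was chosen after the positions had been seen. The E10.5 list is longer than the E9.5 list, and among its best-scored peaks, as many as the E9.5 list holds, the count was 3 members (Spred1, Dusp6 and Etv5) against 5.67% of all genes. The 5 start peaks at E10.5 were 3430 to 4177 bp wide, all wider than the 2480 bp that was the median of the 2244 E10.5 peaks over a coding 5′ end. Their scores ran from 54.29 at Spry4 to 92.88 at Etv5, on both sides of the median of 67.3 for such peaks. The other 9 E10.5 peaks of the members all had their centre 20 kb or more away and were 681 to 5679 bp wide, with a median of 1032 bp.

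**Figure D2:**
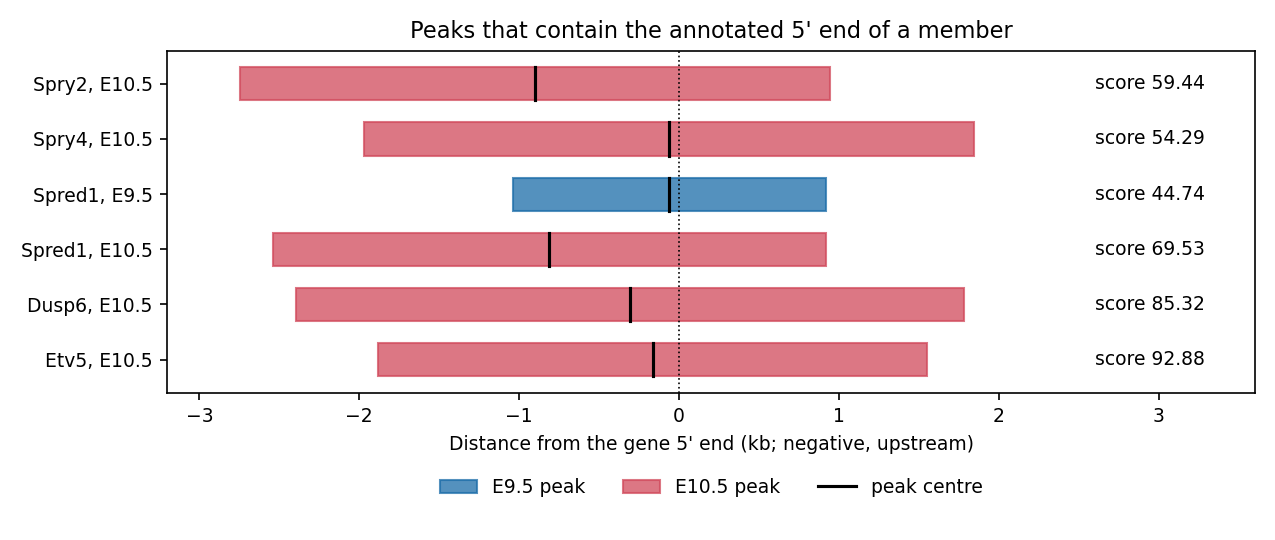
Extent of the 6 peaks that contain the annotated 5′ end of a member, with distance from that end in kb on the x axis, a black line at the peak centre and the deposited score at the right. The 5 E10.5 peaks are 3430 to 4177 bp wide and the E9.5 peak of Spred1 is 1960 bp wide, and every centre lies upstream of the 5′ end.

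The sprouty genes encode membrane-associated inhibitors that act between the FGF receptor and RAF. Spry1 (chr3:37538869-37543520, plus strand) had no peak within 100 kb at either stage. Its closest peaks were 455 kb downstream at E9.5 (score 78.89) and 845 kb downstream at E10.5 (score 50.25), far outside the distance used.

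Spry2 (chr14:106291166-106296036, minus strand), a sprouty gene induced by FGF and inhibiting ERK activation, had a single E10.5 peak at chr14:106295095-106298785. The peak was 3691 bp wide and ran from 2749 bp upstream to 941 bp downstream of the 5′ end. Its score of 59.44 placed it at rank 3160 of 6185 in the E10.5 list, close to the middle. No other protein-coding 5′ end lay within 100 kb of Spry2, and the closest other E10.5 peak was 394 kb away.

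Spry4 (chr18:38745922-38760922, minus strand), a sprouty gene that is a common readout of FGF activity, had 2 E10.5 peaks and no E9.5 peak. The first, chr18:38759078-38762893, had its centre 63 bp upstream of the Spry4 5′ end with a score of 54.29 (rank 4176). This peak also contained the divergent 5′ end that Arhgap26 and 9630014M24Rik share at position 38761188, so it could not be assigned to Spry4 alone. The second, chr18:38842552-38845077, lay 82.9 kb upstream of Spry4 in an intron of Arhgap26, with a score of 52.01 (rank 4743). The closest protein-coding 5′ end to this second peak was the one shared by Arhgap26 and 9630014M24Rik, 82.6 kb away. Both peaks stood in the lower-scored part of the list, 67.5% and 76.7% down the ranking from the best peak.

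The SPRED proteins are relatives of the sproutys that suppress signaling from RAS to RAF and bind neurofibromin. Spred1 (chr2:116947110-117008015, plus strand) was the member whose start was covered at both stages. The E9.5 peak, chr2:116946069-116948028, was 1960 bp wide with a score of 44.74 (rank 1761 of 2073). The E10.5 peak, chr2:116944569-116948026, was 3458 bp wide with a score of 69.53 (rank 1876 of 6185). They overlapped by 1958 bp, which was 99.9% of the E9.5 peak and 56.6% of the E10.5 peak. The downstream edges differed by only 2 bp, at 918 and 916 bp past the 5′ end, whereas the upstream edge was 1041 bp before it at E9.5 and 2541 bp before it at E10.5. The E9.5 peak stood 84.9% down its own list and the E10.5 peak 30.3% down its own, and the lists differ in length. No other protein-coding 5′ end lay within 100 kb. An E9.5 peak 107 kb downstream (score 52.66) fell just outside the distance used.

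Spred2 (chr11:19824378-19924029, plus strand), the other SPRED gene among the members, had 3 E10.5 peaks and none at its 5′ end. The best-scored, chr11:19725366-19731044, was the widest peak at any member with 5679 bp. It lay 96.2 kb upstream of the 5′ end, just inside the distance used, with a score of 84.31 (rank 972). The next, chr11:19753154-19755170, lay 70.2 kb upstream with a score of 59.93 (rank 3078), and the last, chr11:19908444-19909759, lay 84.7 kb downstream in an intron of Spred2 with a score of 50.26 (rank 5288). The closest protein-coding 5′ end to each of these peaks was that of Spred2. No E9.5 peak lay nearer than 249 kb.

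Dusp6 (chr10:98725865-98730122, plus strand), the cytoplasmic phosphatase that removes phosphate from ERK, had the most peaks of the members, with 2 E9.5 peaks and 5 E10.5 peaks. Of all protein-coding genes, 2.28% had 5 or more E10.5 peaks within 100 kb. The 5 peaks of Dusp6 include 2 calls only 195 bp apart at a tandem repeat described below, so the count depends on this split. Where Dusp6 had to be the closest coding gene, 2 E10.5 peaks remained. The Dusp6 5′ end lay inside the E10.5 peak chr10:98723470-98727646, which was 4177 bp wide with a score of 85.32 (rank 936), and inside no E9.5 peak. Of the start peaks at E10.5, 22.9% were wider and 25.7% scored better. A second E10.5 peak, chr10:98676788-98677819, lay 48.6 kb upstream in intergenic sequence (score 67.52, rank 2065). Another, chr10:98651134-98651814, lay 74.4 kb upstream in an intron of Poc1b, a gene upstream of Dusp6 (score 63.95, rank 2497). The closest protein-coding 5′ end to this peak was that of Phxr2, 62.5 kb away.

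The remaining Dusp6 peaks formed a pair in Poc1b that was bound at both stages, in an intron except that the centre of the second E9.5 peak fell in an exon of a non-coding Poc1b transcript. The first region was called at chr10:98632763-98633472 at E9.5, with a score of 97.24 (rank 223, 10.8% down the list), and at chr10:98632697-98633460 at E10.5, with a score of 35.97 (rank 6055, 97.9% down the list). The overlap was 698 bp, or 98.3% of the E9.5 peak and 91.4% of the E10.5 peak, and the centres were 39 bp apart. The second region was called at chr10:98633671-98634179 at E9.5, with a score of 69.41 (rank 495, 23.9%), and at chr10:98633656-98634388 at E10.5, with a score of 74.19 (rank 1494, 24.2%). It overlapped by 509 bp, the whole of the E9.5 peak and 69.4% of the E10.5 peak. Each rank is a place within its own list, and since the lists differ in length and their depths are unknown, a change between the stages cannot be read from these places. The closest protein-coding 5′ end to the pair was that of Phxr2, 44.1 to 45.1 kb away, and not that of Dusp6. Over all members, an overlap with the other stage was found for 3 of 4 E9.5 peaks (18.7% in the whole list) and for 3 of 14 E10.5 peaks (6.26% in the whole list). Such an overlap lay near 2 members, Spred1 and Dusp6, and near 5.51% of all genes. Of the 3 overlaps of the members, 2 were the neighbouring Dusp6 regions, which lay 198 bp apart at E9.5. With scores of 50 or more, 1 shared pair was left.

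The pair overlaps a tandem array of SMAD boxes. The region spanned by the peaks, chr10:98632697-98634388, held 42 SMAD boxes, all in the orientation GTCTG on the plus strand. Of these, 39 had another box at a distance of exactly 22 bp, and they filled 710 bp at chr10:98633220-98633929. Across this array 93.5% of the bases equalled the base 22 bp further on. The commonest unit occurred 13 times and is printed with its SMAD box in capitals.
Dusp6 array unit: GTCTGggtactctgcagtatct

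Each of the E9.5 peaks had an edge inside the array, and the 198 bp between them (chr10:98633473-98633670) held 9 further boxes. At E9.5 the first region held 17 boxes and the second 16, and for E10.5 these counts were 16 and 17. The windows printed above, with 6 and 12 boxes, compare with a median of 1 box per window over the E9.5 list, in which 27 of 2073 windows (1.3%) held 6 or more and 12 windows (0.579%) held 12 or more. Reads had been trimmed to 63 bases and kept only where they matched the genome uniquely, with a small number of mismatches allowed. No reads were used here, but of the mm9 positions in the gap between the E9.5 peaks, 59.1% began a 63-base stretch with another exact copy in mm9, against 22.4% and 19.2% in the first region (E9.5, then E10.5) and 15.1% and 12.6% in the second. At 14 other peaks of the members this share was 0 to 5.74%. Copies that differed by mismatches were not counted, so these shares may be below the share of positions without a unique match. The mm9 sequence comes from C57BL/6J mice and the embryos were NMRI, so the number of units in these embryos is unknown. The part of the repeat in the split into a pair and in the scores was not tested.

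**Figure D3:**
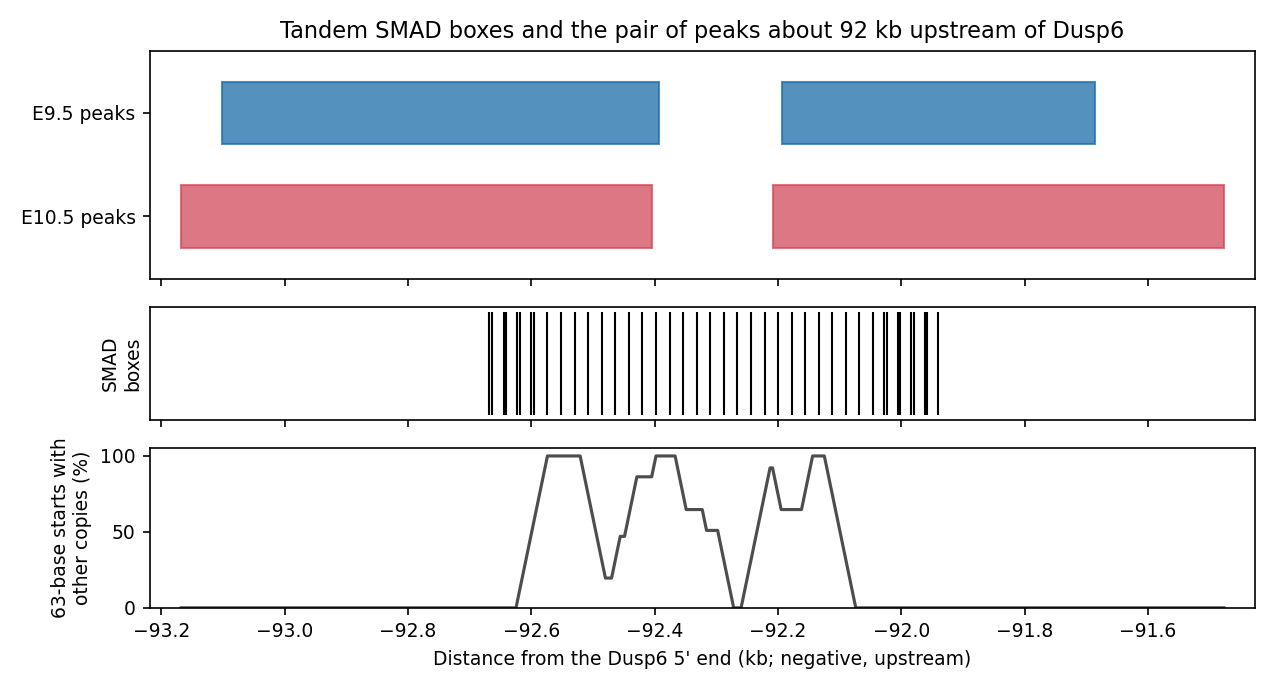
The distal pair of Dusp6, with distance from the Dusp6 5′ end in kb on the x axis: peaks of each stage (top), positions of SMAD boxes (middle) and the share of mm9 positions that begin a 63-base stretch with another exact copy, averaged over about 50 bp (bottom). The peaks of both stages leave nearly the same gap, of 198 bp at E9.5 and 195 bp at E10.5, inside the row of boxes, and 59.1% of the positions in the E9.5 gap begin a stretch with other copies.

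Etv4 and Etv5 encode closely related ETS transcription factors of the PEA3 group that carry the FGF response in the limb bud mesenchyme. Etv4 (chr11:101631056-101646685, minus strand) had 1 peak at each stage, neither of them at its own start. The E9.5 peak, chr11:101593665-101594891, lay 52.4 kb downstream with a score of 98.56 (rank 214), the best-ranked E9.5 peak of the members. Its centre was 45 bp from the 5′ end of Dhx8, the gene of an RNA helicase, and the peak contained that 5′ end. The E10.5 peak, chr11:101596640-101597636, lay 49.5 kb downstream of the Etv4 5′ end over a coding exon of Dhx8 with a score of 57.12 (rank 3599). The peaks of the stages did not overlap and were 1748 bp apart. The closest protein-coding 5′ end to each was that of Dhx8.

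Etv5 (chr16:22381382-22439792, minus strand) had a single peak, at E10.5, which was also the best-scored E10.5 peak of the members. It lay at chr16:22438244-22441673, from 1881 bp upstream to 1548 bp downstream of the 5′ end, with a score of 92.88 (rank 697, 11.3% down the list). Of the 2244 E10.5 peaks over a coding 5′ end, 20% scored better. The closest E9.5 peak was 209 kb upstream with a score of 42.53, and no other protein-coding 5′ end lay within 100 kb. The related genes thus differed in position, with a start peak at Etv5 and none at Etv4.

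The scores of the members' peaks were moderate within each list. At E9.5 the 4 peaks scored 44.74, 69.41, 97.24 and 98.56, against a list median of 56.3 and a list maximum of 3100. The 14 E10.5 peaks scored 35.97 to 92.88 with a median of 61.9, against a list median of 59.8 and a maximum of 2155.22. At each stage 0 member peaks were in the best-scored 10% of the list, although the peaks of Etv4 and the first distal region of Dusp6 at E9.5 came close at 10.3% and 10.8%. In the better-scored part of the ranking, above the list median, were 3 of 4 member peaks at E9.5 and 8 of 14 at E10.5. Scores under 50 were given to 2 member peaks, that of Spred1 at E9.5 and the first distal region of Dusp6 at E10.5, and both were peaks that the other stage also held. Of the E9.5 list 20% scored under 50 and of the E10.5 list 13.1%.

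Base composition overlapped between start peaks and the other peaks. In the 300 bp around the centre, the windows of the start peaks had 50.3% to 82.3% G and C, the highest being the E9.5 peak of Spred1, and the windows away from a start had 43.3% to 61%. The list medians were 53% (E9.5) and 55% (E10.5). The 61% window away from a member's start was the E9.5 peak near Etv4, which sits at the start of Dhx8.

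SMAD boxes were densest at the distal pair of Dusp6. A SMAD box lay within the central 300 bp of 3 of the 4 E9.5 peaks and of 7 of the 14 E10.5 peaks, against 60.6% and 53.2% of the windows of the lists. The E9.5 windows of the members held 20 boxes in all, of which 18 were in the distal pair of Dusp6. In the E10.5 windows the pair held 8 of 17 boxes, and over whole peaks it held 33 of 40 boxes (E9.5) and 33 of 113 (E10.5). Outside that pair no member window held more than 2 boxes, the number at both Spry4 peaks, the Dusp6 peak 74.4 kb upstream and both peaks near Etv4, and the Etv5 start window held 1. Over whole peaks, the distal pair held 23.9 and 31.4 boxes per kb in the E9.5 calls and 20.9 and 23.2 in the E10.5 calls, and a density of 20 per kb was one that 14 peaks of the whole E9.5 list and 10 of the whole E10.5 list reached. Over the whole lists the median density was 2.87 per kb (E9.5) and 2.74 per kb (E10.5). The start peaks held between 0 boxes per kb, at Spred1 at E9.5, and 3.93, at Spry4.

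Other short elements were searched on both strands in the same windows. The extended form CAGACC, which contains the SMAD box, lay in 1 of 4 E9.5 and 3 of 14 E10.5 windows, against 20.9% and 19.7% of the list windows. GGCGCC lay only in the E10.5 window of Etv5 among the members, against 12.6% and 13.1%. The ETS core AGGAAG lay in 2 of 4 and 5 of 14 windows, against 37.5% and 35.2%. The AP-1 element TGANTCA lay in 1 window, that of Etv5, against 7.14% and 5.74%. The palindromic SMAD element GTCTAGAC and the PKNOX1 element TGACTGAC lay in 0 member windows and in at most 1.41% of the windows of either list. In the RefSeq promoter windows of the members (GRCm38.p6, 250 bases before to 50 after the start, 7 records for 6 of the 8 members, without Spry4 and Etv4), 0 held a SMAD box, which 49.6% of all 32851 such windows held. In the same 7 records GGCGCC lay in 3 (Spred1, Spred2 and 1 of the Etv5 records), against 11.9% of all windows, and the ETS core in 3, against 35.4%. The count of SMAD boxes rests on the RefSeq starts, since the printed Etv5 window has a SMAD box 125 bp upstream of the GENCODE 5′ end. Spry4 is not among the records, and the mm9 window of its start peak held 2 SMAD boxes. A match of letters describes the sequence and is not a binding site.

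Other genes of the FGF-ERK pathway were counted in the same way. Of 24 genes for FGF ligands, receptors, adaptors and kinases of the cascade, peaks lay within 100 kb of 9 at E9.5 and of 20 at E10.5, and the 5′ ends of 10 lay inside an E10.5 peak, against 20.5%, 52.9% and 11.3% of all protein-coding genes. Of 11 further feedback genes and relatives of the members that the annotation names, 1 had a peak in the E9.5 list and 8 in the E10.5 list, and the 5′ ends of 3 lay inside an E10.5 peak, beside the same shares of all genes. Some of these genes had peaks among the best-scored 10% of a list. At E10.5 these were the receptor genes Fgfr2 (score 208.95, rank 35, 235 bp upstream of the 5′ end), Fgfr4 (score 156.2, rank 89, 58.5 kb downstream) and Fgfr3 (score 97.59, rank 578, 98.8 kb downstream). They also included the ridge ligand gene Fgf4 (score 117.23, rank 269, 248 bp downstream), the ERK phosphatase gene Dusp7 (score 124.68, rank 209, 1.11 kb downstream) and Hras, listed as Hras1 in the annotation (score 98.15, rank 560, 83.6 kb upstream). At E9.5 it was Hras alone (score 253.54, rank 38, 70.8 kb downstream). The closest coding gene to these pathway peaks is not given here, so the distant ones may lie nearer to another gene. These differences between lists of genes were not tested.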

How the data were processed

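Reads of SMAD4-3xFLAG ChIP-seq and input DNA samples were trimmed to 63 bases by the authors and aligned to mm9 with Bowtie 1.1.0, keeping unique matches. Peaks were called in each replicate with MACS 1.4 against input, and MSPC kept the regions found in both replicates. Tools and versions are also in the submitters' processing notes. The deposited lists give position and a score per peak. The methods say that a region was given its best MACS p-value, and the score may be this value on a negative log scale, but the lists name no unit, so scores were ranked within a list only. Depth is unknown.

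Peaks were assigned on mm9 with GENCODE vM1 (Python 3.11.15, pysam 0.24.0, NumPy 2.4.6, Matplotlib 3.10.9). Positions count from 1, peaks sharing at least 1 bp overlapped, and motifs were searched in 300 bp around each centre because the lists give no summits. The scripts were tested on simulated data. Copies of 63-base stretches were exact mm9 matches on either strand.

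The members, lists and alternatives were chosen with earlier results of these data known. Named were all members and their peaks, the closest coding genes, and pathway genes with a peak in the best-scored 10% of a list.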

Additional observations from a re-analysis of the deposited data

How the results depend on the processing

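No paired analysis was possible because the replicates of a stage were combined by the authors before deposition, and no replicate could be left out. Any transcript 5′ end or the nearest peak edge in place of the centre gave the reported counts again. With centres within 50 kb, 1 member had an E9.5 peak, and 1 E9.5 peak, 7 E10.5 peaks and 1 shared pair remained. Within 20 kb, 1 member had an E9.5 peak, and the counts were 1, 5 and 1. With scores of 50 or more, 1 pair was shared. With scores of 100 or more, 0 peaks and 0 members were left at each stage and 0 pairs were shared. With an E10.5 list cut to the 2074 best-scored peaks (a tie added 1), 4 members had an E10.5 peak, with 6 peaks. With peaks kept only where the member was the closest coding gene, 1 member had an E9.5 peak, and there were 1 E9.5 peak, 9 E10.5 peaks and 1 shared pair. For the alternatives named so far, the share of all protein-coding genes with a peak was not counted. A lower count of members therefore cannot be set beside such a share. With centres within 1 kb in place of overlap, 5 pairs were shared, since both distal regions of Dusp6 then pair with each other. A SMAD box lay in 10 of 18 member windows, in 12 with 600 bp and in 17 whole peaks, which are longer. The count of members with the 5′ end inside an E10.5 peak, with alternatives chosen after seeing the data, went from 5 to 0 with scores of 100 or more and to 3 with the shorter E10.5 list. Of 49 alternatives, 25 stayed within 1.5 times the reported count.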
